A study of Mus musculus with 3 samples.

Results

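The sensory neuropeptide precursors are 10 genes, Calca, Calcb, Tac1, Adcyap1, Sst, Nppb, Gal, Npy, Nts and Vip, taken by symbol from the 32227 genes of a single nucleus RNA-seq (snRNA-seq) data set of the mouse dorsal root ganglion (DRG), and all 10 were found in the gene list. Lumbar L3 to L5 ganglia of wild-type C57BL/6 mice were frozen and their nuclei captured without microfluidics in particle-templated emulsions (PIP-seq). The adult group is 1 library from mice 3 months of age, and the aged group is 2 libraries from mice 21 months of age by the sample labels, where the design text of the series gives a younger age. No mouse received a treatment or carried an engineered allele, and how many mice went into a library is not given in the sources used here, so every p-value below measures the spread between these libraries. With 1 adult library, that spread comes from the pair of aged libraries within a cell class. The tests share their estimates of spread across genes, so a small p-value does not rest on the spread of 1 precursor alone.

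Neuropeptides are cut from larger precursor proteins and packed into dense-core vesicles. A neuron releases them at both ends of its axon, in the dorsal horn and in the skin or viscera, where they act on G-protein-coupled or guanylyl cyclase receptors over a wider range than fast transmitters do. In the DRG the set of peptides a neuron makes is among the classic ways of telling its type: Calca and Tac1 mark peptidergic nociceptors, Sst and Nppb mark a class of itch neurons, and Gal, Npy, Nts and Vip are peptides that are scarce in intact ganglia or kept to small groups of cells, with Gal, Npy and Vip known to rise in neurons after nerve injury.

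Levels are given in CPM, the usual scaling of the UMIs of a gene (unique molecular identifiers, each 1 captured RNA molecule) to the total UMIs of the nuclei summed. Nuclei are barcodes with more than 1000 genes, 11518 of them adult, 5130 from aged library 1 and 2611 from aged library 2, with medians of 3269, 4318 and 4900 UMIs. They fell into 28 clusters, built without the 10 precursor genes, of which 14 were neuron-like (4405, 2285 and 1243 nuclei, in this order of libraries, which is kept below). Subtype names with "-like" rest on marker genes that hold no precursor. Of these clusters, 3 held little Malat1, an RNA kept in the nucleus (under 1.48% of UMIs), and had mitochondrial shares of 0.6 to 0.672% of UMIs. Of the other 11, large-fiber-like (Lgi2 and Slitrk4) had a mitochondrial share of 0.659%, and the rest had 0.0974 to 0.187%. The 3 clusters made up 18.9, 37.3 and 26.5% of the neuron-like nuclei and are named as low Malat1. RNA in barcodes of 10 to 99 UMIs, too few for a nucleus, is called free RNA and is given beside the nuclei because it enters every droplet. Over 14674 genes, as log2(CPM + 1), the low Malat1 clusters had Pearson's r of 0.894 to 0.931 with free RNA. The Lgi2 and Slitrk4 cluster, with 1.77% Malat1 and not named as low, had 0.940, and the other neuron-like clusters had 0.787 to 0.858. Barcodes of nuclei shared between libraries numbered 1, 1 and 0.

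The labels give all mice as male, and the methods of the study give the aged mice as female. Xist, expressed from the inactive X chromosome, stood at 1414, 844.4 and 928.9 CPM, a level that goes against an all-male label in each library. Of the Y-linked genes, Ddx3y stood at 20.61, 13.21 and 7.867 CPM, whereas Uty had 246, 56 and 27 UMIs, Kdm5d 91, 33 and 23, and Eif2s3y 9, 3 and 1. Libraries of females alone and of both sexes cannot be told apart from these values. The libraries also differ in RNA content. The cytoplasmic neuronal RNA Bc1 stood at 584.6 CPM in the adult library against 11.37 and 6.139 CPM in the aged libraries, and Malat1 took 5% of UMIs in the adult library against 1.47 and 1.61%. With 1 adult library these differences follow age, so their part in the age differences below cannot be told apart and was not tested.

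The promoters of 5 precursors that carry the results are shown first. Sst and Nts shared a subtype with Nppb, which is not shown, and Calca, Tac1 and Gal were lower together in the aged peptidergic C-like nuclei. Each window shown runs from 250 bases before to 50 bases after the transcription start. It is written on the strand of the gene, from RefSeq on GRCm38.p6. Capitals mark the cAMP response element (CRE), the DNA letters that CREB binds, either whole (TGACGTCA, a palindrome) or as its core on either strand (TGACG or CGTCA, which the whole element contains on both strands).

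Sst (chr16:23890795-23891094, minus strand): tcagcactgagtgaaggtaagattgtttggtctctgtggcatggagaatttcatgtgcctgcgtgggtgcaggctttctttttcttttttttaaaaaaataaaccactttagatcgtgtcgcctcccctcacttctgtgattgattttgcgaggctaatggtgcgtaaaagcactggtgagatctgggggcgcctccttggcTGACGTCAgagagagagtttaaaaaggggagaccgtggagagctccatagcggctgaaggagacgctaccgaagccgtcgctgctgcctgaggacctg
Nts (chr10:102490369-102490668, minus strand): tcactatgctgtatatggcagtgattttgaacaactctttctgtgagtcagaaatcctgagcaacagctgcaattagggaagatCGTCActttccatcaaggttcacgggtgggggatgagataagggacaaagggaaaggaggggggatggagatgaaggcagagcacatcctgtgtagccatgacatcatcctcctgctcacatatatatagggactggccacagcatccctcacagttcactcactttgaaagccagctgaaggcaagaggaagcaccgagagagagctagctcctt
Calca (chr7:114636308-114636607, minus strand): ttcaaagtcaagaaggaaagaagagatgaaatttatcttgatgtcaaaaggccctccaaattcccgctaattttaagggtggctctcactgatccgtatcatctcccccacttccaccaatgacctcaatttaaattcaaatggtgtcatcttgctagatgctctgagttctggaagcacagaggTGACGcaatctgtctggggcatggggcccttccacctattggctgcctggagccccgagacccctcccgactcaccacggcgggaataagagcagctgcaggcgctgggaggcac
Tac1 (chr6:7554811-7555110, plus strand): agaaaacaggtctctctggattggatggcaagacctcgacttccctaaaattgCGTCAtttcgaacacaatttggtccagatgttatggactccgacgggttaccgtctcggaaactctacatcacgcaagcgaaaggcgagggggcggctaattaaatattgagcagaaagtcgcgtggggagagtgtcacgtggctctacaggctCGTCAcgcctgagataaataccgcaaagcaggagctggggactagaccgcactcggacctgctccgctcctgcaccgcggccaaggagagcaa
Gal (chr19:3414495-3414794, minus strand): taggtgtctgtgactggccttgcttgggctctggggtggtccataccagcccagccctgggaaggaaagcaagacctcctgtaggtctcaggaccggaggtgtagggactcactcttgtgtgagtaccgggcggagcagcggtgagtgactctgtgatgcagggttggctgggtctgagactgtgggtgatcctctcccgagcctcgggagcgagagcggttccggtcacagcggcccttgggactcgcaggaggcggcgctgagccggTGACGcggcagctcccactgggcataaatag

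Windows were found for 9 of the 10 precursors, all but Calcb, and Adcyap1 had 2 overlapping windows. A CRE core stood in the windows of 7 of these 9 genes (Calca, Tac1, Adcyap1, Sst, Gal, Nts and Vip), where 20.8% of all 32851 promoter windows of that length hold it. The whole element was found in Sst, the gene in which the CRE was first described, and in 1.79% of all windows. The windows of Nppb and Npy held no core. The motif was chosen with the levels known, so these matches describe the letters and were not tested.

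The first question was which neurons carried each precursor and how firmly the 3 libraries placed it. Calca, Tac1, Adcyap1 and Gal were highest in the peptidergic C-like subtype (487, 181 and 125 nuclei), named from receptors and channels of unmyelinated peptidergic nociceptors such as Gfra3 and Sstr2. Sst, Nppb and Nts were highest in the NP3 (itch)-like subtype (69, 57 and 37 nuclei), named from genes such as Cysltr2 and Htr1f. Calcb was spread over non-peptidergic and peptidergic subtypes alike, Npy was carried by few nuclei, and Vip had 10 UMIs in all nuclei. Since the clusters were built on other genes of the same nuclei, these levels are a description and carry no test.

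**Figure D1:**
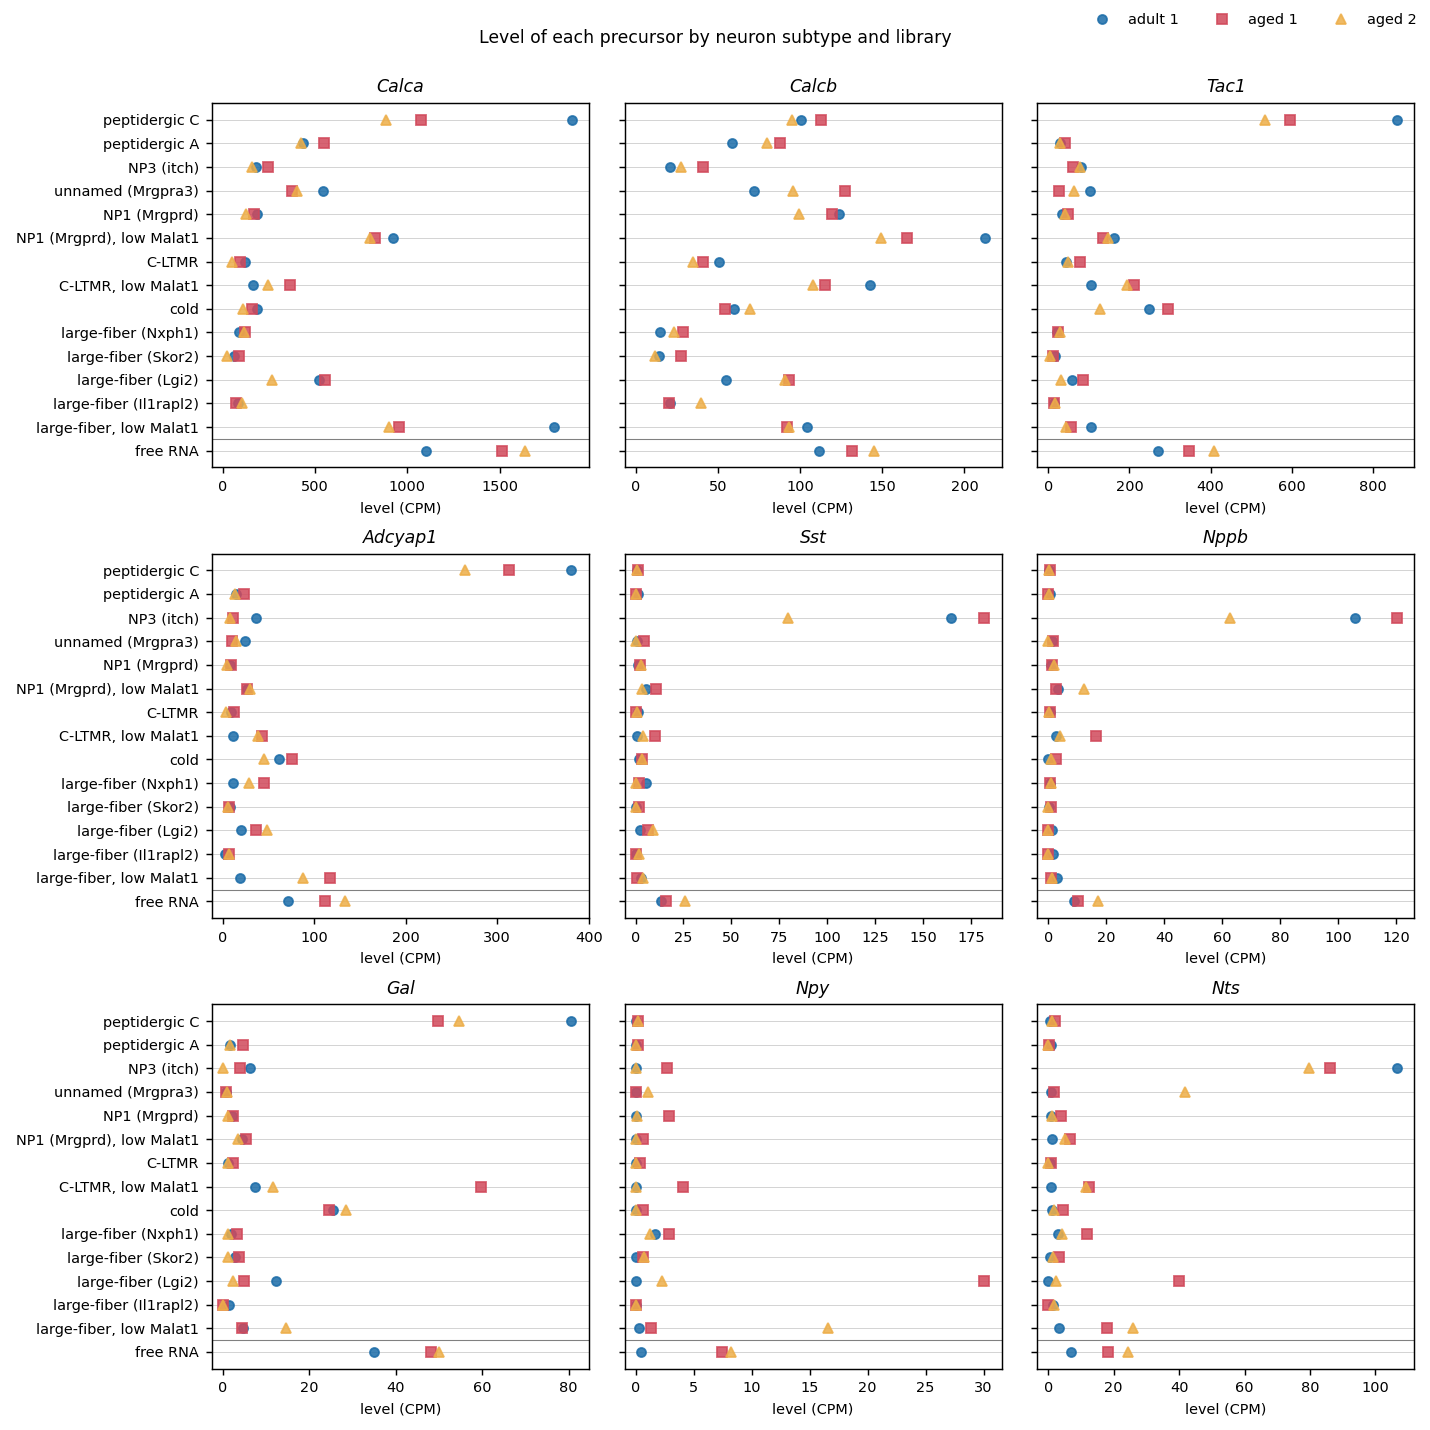
Level of 9 precursors (Vip, with 10 UMIs in all, is left out) in each neuron subtype and in free RNA, on a linear CPM axis that differs between panels. Each point is 1 library; Calca, Tac1, Adcyap1 and Gal reach their highest values in the peptidergic C row, and Sst, Nppb and Nts stand apart in the NP3 (itch) row.

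Calca (chr7:114631478-114636357, minus strand, on GRCm38 as are the other gene positions here) encodes calcitonin and, by alternative splicing, alpha-CGRP, the vasodilator peptide of nociceptors. It was the most abundant precursor in every library, with 455.4, 413.3 and 324.3 CPM over all nuclei. In the peptidergic C-like subtype it stood at 1889, 1074 and 884.9 CPM (mean 1282 ± 533.4, SD, n = 3). The large-fiber-like, low Malat1 cluster came next with 1793, 954.1 and 900.7 CPM, and the ranges of both clusters overlapped, so Calca did not single out a subtype. Nuclei with at least 1 Calca UMI made up 98.4, 96.1 and 96.8% of the peptidergic C-like nuclei. SGC-like nuclei, satellite glia that should lack the gene, showed a Calca UMI in 28.8, 39.9 and 35.8%, at median depths of 3166, 7287 and 7904 UMIs against 17198, 24091 and 39342. With each nucleus thinned to 1000 UMIs, the shares were 73.9, 57.5 and 54.4% in the peptidergic C-like subtype and 10.8, 9.90 and 7.91% in SGC-like nuclei. Free RNA held Calca at 1103, 1514 and 1637 CPM, above every subtype but peptidergic C-like and large-fiber-like, low Malat1 in the adult library and above all of them in the aged libraries.

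Tac1 (chr6:7554879-7565834, plus strand) encodes substance P and neurokinin A, which drive neurogenic inflammation and act on the receptor Tacr1. Its levels in the peptidergic C-like subtype were 859.9, 596.6 and 534 CPM (mean 663.5 ± 172.9, SD, n = 3). All 3 values lay above those of the next subtype, the Trpm8-marked cold-like neurons, at 247.4, 296.1 and 127.4 CPM. A Tac1 UMI was seen in 95.1, 84.5 and 94.4% of the peptidergic C-like nuclei and in 7.13, 13.1 and 13% of SGC-like nuclei. Of all Tac1 UMIs in nuclei, 60.3, 47.9 and 59.2% came from this subtype.

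Adcyap1 (chr17:93199017-93206537, plus strand) encodes PACAP, a peptide of the VIP family that acts on Adcyap1r1. It stood at 381.1, 313.3 and 264.4 CPM in the peptidergic C-like subtype (mean 319.6 ± 58.58, SD, n = 3). The next cluster, large-fiber-like, low Malat1, held 18.7, 117.6 and 87.61 CPM, below all 3 of those values. Adcyap1 was thus more closely tied to the peptidergic C-like nuclei than Calca was, with a mean 4.28 times that of the next subtype against 1.05 times for Calca. Its UMIs were seen in 83.2, 77.9 and 88.0% of those nuclei and in 2.43, 5.69 and 5.58% of SGC-like nuclei.

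Gal (chr19:3409915-3414544, minus strand) encodes galanin, which dampens transmission in the dorsal horn. In the peptidergic C-like subtype it stood at 80.65, 49.92 and 54.73 CPM (mean 61.77 ± 16.53, SD, n = 3). Nuclei with a Gal UMI were 47.0, 44.8 and 52.8% of this subtype and at most 1.49% of SGC-like nuclei in any library. The cold-like subtype had 25.41, 24.68 and 28.6 CPM, and the C-LTMR-like, low Malat1 cluster (C-LTMR are unmyelinated low-threshold touch neurons) reached 59.69 CPM in aged library 1 against 7.46 and 11.6 CPM in the others, so that its range overlapped that of the peptidergic C-like subtype.

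Calcb (chr7:114718643-114723365, plus strand) encodes beta-CGRP, a near copy of alpha-CGRP, and lies 82.3 kb from Calca. The genes of this pair are paralogs, and reads of their similar parts could be assigned to either. Calcb was highest in the NP1 (Mrgprd)-like, low Malat1 cluster, non-peptidergic nociceptors, at 212.5, 165.3 and 149.3 CPM (mean 175.7 ± 32.86, SD, n = 3). It stood at 123.7, 119.6 and 99.09 CPM (mean 114.1) in the NP1 (Mrgprd)-like subtype with more Malat1. A marker gate in place of clusters, which does not separate low Malat1 nuclei, gave 100.2 CPM over all gated NP1 (Mrgprd)-like nuclei. In the peptidergic C-like subtype Calcb had 100.7, 113 and 94.86 CPM, a range that overlapped that of the NP1 (Mrgprd)-like subtype. In that NP1 subtype a Calcb UMI was seen in 64.1, 70.0 and 63.1% of nuclei, against 3.18, 6.68 and 7.44% of SGC-like nuclei.

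Sst (chr16:23889573-23890958, minus strand) encodes somatostatin, an inhibitory peptide, and Nppb (chr4:147985788-147987205, plus strand) encodes the B-type natriuretic peptide, which carries itch to the spinal cord through the receptor Npr1. Sst stood at 164.5, 181.8 and 79.59 CPM in the NP3 (itch)-like subtype (mean 142 ± 54.71, SD, n = 3). No other subtype passed 10.84 CPM in any library. Nppb stood at 105.7, 120.3 and 62.63 CPM in the same nuclei (mean 96.21 ± 29.99, SD, n = 3), against at most 16.47 CPM elsewhere among the neurons. For both genes aged library 1 was the highest and aged library 2 the lowest, with the adult library between them. The sums behind them are small: 179, 133 and 61 UMIs of Sst and 115, 88 and 48 of Nppb.

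Nts (chr10:102481756-102490486, minus strand) encodes neurotensin and neuromedin N. It shared the NP3 (itch)-like subtype with Sst and Nppb, at 106.6, 86.14 and 79.59 CPM (mean 90.77 ± 14.08, SD, n = 3), from 116, 63 and 61 UMIs. The next subtype by mean, large-fiber-like, low Malat1, stood at 3.116, 17.83 and 25.89 CPM, below all of these. A Nts UMI was seen in 49.3, 49.1 and 43.2% of NP3 (itch)-like nuclei and in 0.101, 0.990 and 2.33% of SGC-like nuclei. The NP3 (itch)-like nuclei held 50.9% of the Nts UMIs of all adult nuclei and 15.0 and 29.9% of those of all aged nuclei, where more of the gene lay in other nuclei. With a marker gate in place of clusters, the mean levels in this subtype were lower, 68.81 CPM for Sst, 48.99 for Nppb and 49.55 for Nts, and after thinning to 1000 UMIs they were higher, 246.6, 168.6 and 121.5 CPM.

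Within the NP3 (itch)-like subtype the 3 peptides were seen more often in a nucleus that also held another of them, though deeper nuclei show more of every gene. Nppb was seen in 66.7, 76.5 and 70.6% of nuclei with a Sst UMI and in 37.5, 43.5 and 35% of those without. Nts was seen in 57.8, 61.8 and 64.7% of nuclei with Sst and in 33.3, 30.4 and 25% of those without. Median depths were 16872, 6837 and 37622 UMIs with Sst and 6393, 4376 and 6236 without, and the part of depth in these shares was not tested. In the peptidergic C-like subtype, Adcyap1 was seen in 85.1, 84.3 and 90.7% of nuclei with a Tac1 UMI and in 45.8, 42.9 and 42.9% of those without, where depths were again unequal, 17770, 34215 and 40800 against 2674, 3486 and 2442 UMIs.

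**Figure D2:**
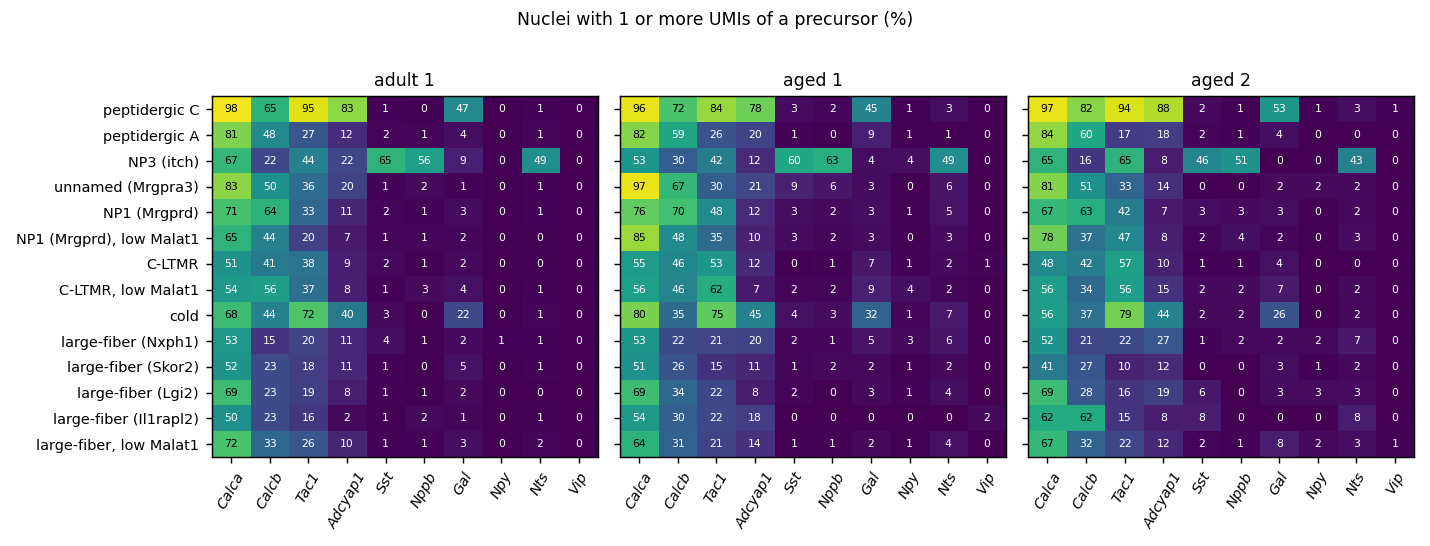
Share of nuclei with 1 or more UMIs of each precursor (columns, in percent, printed in each cell and coloured from 0 to 100) in each neuron subtype (rows) of the adult and aged libraries. Calca is seen in at least 41.1% of nuclei in every row, whereas Sst, Nppb and Nts are seen in at least 43.2% of NP3 (itch) nuclei and in at most 9.09% of nuclei of any other row. With free RNA subtracted, no Calca UMIs were left in the large-fiber (Nxph1), large-fiber (Skor2), C-LTMR and C-LTMR, low Malat1 rows.

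Npy (chr6:49822710-49829507, plus strand) encodes neuropeptide Y, an inhibitory peptide found in sympathetic neurons and, after injury, in large sensory neurons. It had 17, 73 and 34 UMIs in all neuron-like nuclei. Its highest mean was in the large-fiber-like (Lgi2 and Slitrk4) subtype, at 0, 30.05 and 2.323 CPM (mean 10.79 ± 16.72, SD, n = 3), but the 18 UMIs of aged library 1 there lay in 1 nucleus. Vip (chr10:5639218-5647617, plus strand), which encodes the vasoactive intestinal peptide, had 5, 3 and 2 UMIs in all nuclei and was tested nowhere.

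Across the 42 sums of subtype and library, the levels of the precursors fell into groups, as log2(CPM + 1). Sst and Nppb were the most alike pair (Pearson's r = 0.856), followed by Adcyap1 and Gal (0.793), Tac1 and Gal (0.764), Tac1 and Adcyap1 (0.751) and the paralogs Calca and Calcb (0.743), whereas Sst and Calcb had r = 0.004. Among 15609 genes, S100a11 (r = 0.865) and Capn5 (0.856) were among the 3 most like Calca. Calcb was most like Pirt (0.884), a regulator of TRP channels, Ctsl (0.865) and Serpina3g (0.856). Tac1 was most like Stmn1 (0.846), Kcnk2 (0.840) and Nrsn1 (0.838), and Adcyap1 like Gpx3 (0.817), Marcksl1 (0.808) and Zdhhc22 (0.793). Gal was most like Marcksl1 (0.847), Kcnk3 (0.833) and Zcchc12 (0.827). Beside Nppb, Sst was most like Gm525 (0.815) and Gm40538 (0.799), and Nppb was most like Sst, Gm525 (0.837) and Cysltr2 (0.802), a leukotriene receptor used to name the NP3 (itch)-like subtype. Nts was most like Jak1 (0.802), Ildr2 (0.757) and Cavin1 (0.733). These sums share libraries and depths, and the values are descriptions over them.

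The second question was how the precursors differed between aged and adult libraries. In subtypes with 20 or more nuclei per library, 79 pairs of precursor and subtype held enough UMIs for the quasi-likelihood test of edgeR. Of these pairs, 14 (17.7%) had an adjusted p under 0.05, where 5.04% of the 167095 tests of all genes in the same 13 subtypes did. The 14 comprised 9 that were lower and 5 that were higher in the aged libraries, in 6 of the 13 subtypes. The lower ones were Calca, Tac1, Gal and Sst, and the higher ones Adcyap1, Nts and Npy. Because a few nuclei can carry most UMIs of a peptide, each call was fitted again without the UMIs of the nucleus that holds most of them in each library. Of the 14 calls, 11 held.

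In the peptidergic C-like subtype 3 of the 6 precursors tested, Calca, Tac1 and Gal, were lower in the aged libraries, where 4.37% of the 15231 genes tested passed in either direction and 3.62% were lower. The median log2 fold change over the 6 was -0.66, beside 0.00154 over all genes tested. Calca, from 1889 CPM to 1074 and 884.9, was 2.16-fold lower (log2 fold change -1.11, SE 0.155, adjusted p = 0.000265, edgeR), and both aged values lay below the adult value. Tac1, from 859.9 to 596.6 and 534 CPM, was 1.7-fold lower (-0.76, SE 0.155, adjusted p = 0.00694, edgeR). Gal was 1.72-fold lower (-0.78, SE 0.186, adjusted p = 0.0202, edgeR), with 683, 269 and 255 UMIs. Adcyap1, with -0.56 (SE 0.164), missed the threshold (adjusted p = 0.0637, edgeR). It passed with no filter on low counts (0.0189), with the precursors kept in the clustering (0.0216), with a marker gate in place of clusters (0.00864), with a minimum of 2000 genes and without the top nuclei (0.0474 each as adjusted p). Calcb had -0.11 (SE 0.179, adjusted p = 0.789, edgeR). The nucleus with most Calca UMIs held 1.5, 2.78 and 5.63% of them, and without it the log2 fold change was -1.15. Over the same libraries free RNA held more of these peptides, with Calca at 1103, 1514 and 1637 CPM and Tac1 at 270.2, 346.4 and 409.7 CPM. With the free RNA of each library subtracted, the log2 fold changes were larger, -1.45 for Calca, -0.95 for Tac1 and -0.99 for Gal, but that fit called none of 14347 genes (adjusted p = 0.731, 0.819 and 0.819), with 801 at an unadjusted p under 0.05. DESeq2 and thinning to 1000 UMIs kept the calls of Calca and Tac1 but not that of Gal (adjusted p = 0.243 and 0.859).

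**Figure D3:**
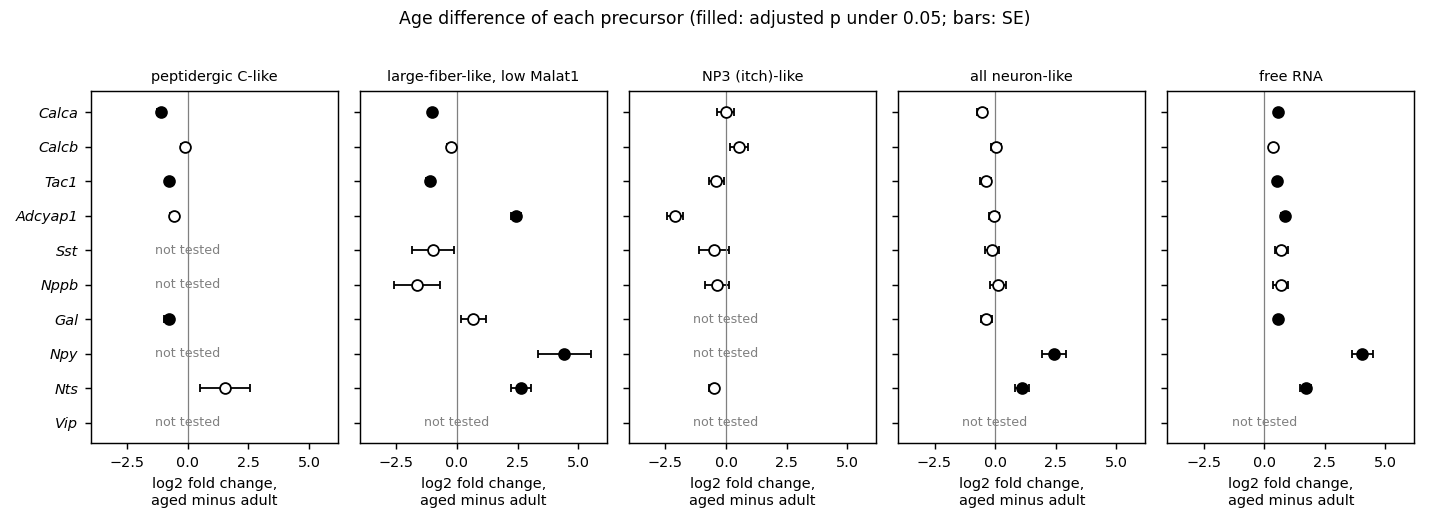
Log2 fold change of each precursor, aged minus adult, with its standard error as bars, in 3 neuron subtypes, all neuron-like nuclei and free RNA. Filled points passed an adjusted p of 0.05 in edgeR; Calca and Tac1 are lower in the peptidergic C and large-fiber, low Malat1 panels and higher in free RNA, and Npy and Nts have filled points above 0 in 3 of the 5 panels.

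The large-fiber-like, low Malat1 cluster (478, 558 and 181 nuclei), named from Nefh and other genes of myelinated neurons, held 5 of the 14 calls, from 9 precursors tested, where 9.98% of the 13824 genes tested passed. Adcyap1 rose 5.38-fold (log2 fold change 2.43, SE 0.208, adjusted p = 1.33e-28, edgeR), from 18.7 CPM to 117.6 and 87.61. Its UMIs were unevenly spread: 1 nucleus held 179 of the 521 UMIs in aged library 1 and 1 nucleus 89 of the 132 in aged library 2. Without the top nucleus of each library the levels were 17.18, 78.11 and 29.58 CPM and the log2 fold change 1.71 (adjusted p = 8.79e-11, edgeR). With the precursors kept among the clustering features it was 1.24 (adjusted p = 5.7e-07). The share of nuclei with a UMI was 10.5, 14.3 and 11.6%, with exact 95% intervals of 7.86 to 13.6, 11.5 to 17.5 and 7.33 to 17.2%, which overlap.

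Nts rose in the same cluster (log2 fold change 2.64, SE 0.429, adjusted p = 6.1e-08, edgeR), from 12 UMIs in the adult library to 79 and 39. In aged library 2, 34 of the 39 UMIs lay in 1 nucleus, and without the top nuclei the levels were 2.598, 13.35 and 3.44 CPM and the log2 fold change 1.86 (adjusted p = 0.00952). Npy had 1, 6 and 25 UMIs there (adjusted p = 0.00139, edgeR, and 0.851 in DESeq2), 21 of the 25 in 1 nucleus. The ratio of aged to adult Npy CPM was 20.1, with a counting interval of 3.35 to 820, the fitted log2 fold change went from 4.43 to 2.19 without aged library 2, and without the top nuclei too few UMIs were left for a test. Calca and Tac1 fell here as in the peptidergic C-like subtype. Calca, from 1793 CPM to 954.1 and 900.7, changed by -1.02 on the log2 scale (SE 0.0954, adjusted p = 5.18e-24), and Tac1, from 105.9 CPM to 55.75 and 44.47, by -1.10 (SE 0.168, adjusted p = 5.25e-09, both edgeR). Both held without the top nuclei, at -0.97 and -1.08. After thinning to 1000 UMIs Calca held (-0.65, adjusted p = 3.3e-06) and Tac1 did not (-0.60, adjusted p = 0.547). With free RNA subtracted, the Tac1 sums that were left held 233, 0 and 0 UMIs, so the aged Tac1 values in this cluster were no higher than the estimated background.

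The large-fiber-like (Nxph1 and A230006K03Rik) subtype held 2 calls among its 8 precursors tested, where 8.65% of genes passed. Adcyap1 rose 2.8-fold (log2 fold change 1.49, SE 0.256, adjusted p = 0.000145, edgeR), with 11.37, 44.83 and 28.5 CPM and a UMI in 11.4, 19.9 and 27.0% of nuclei. It held without the top nuclei (1.34, adjusted p = 9.71e-06) and missed the threshold in DESeq2 (adjusted p = 0.0746) and after thinning (2.73, adjusted p = 0.749). Sst fell (log2 fold change -2.50, SE 0.689, adjusted p = 0.0181, edgeR), from 52 UMIs in 22 nuclei to 7 UMIs in 4 and 1 UMI in 1, at 5.524, 1.569 and 0.413 CPM. Without the top nuclei it had -2.79 (adjusted p = 0.0132), without aged library 1 it had -3.94, with a minimum of 2000 genes it missed the threshold (adjusted p = 0.0909), and with free RNA subtracted, 37, 0 and 0 UMIs were left and it passed (adjusted p = 0.032).

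The other calls in neuron subtypes were Calca, Tac1 and Npy. In the C-LTMR-like subtype Calca was called lower (123.2, 93.97 and 52.55 CPM, log2 fold change -0.93, adjusted p = 0.00507, 3.47% of genes passed), where the top nucleus alone held 24.3, 11.8 and 27.6% of its UMIs and where the log2 fold change was -0.61 without aged library 2. That call was lost in DESeq2 (adjusted p = 0.708), with a marker gate (0.181), with a minimum of 2000 genes (0.209), after thinning (0.632) and with the precursors kept in the clustering, where the log2 fold change was -0.43 (adjusted p = 0.798). With free RNA subtracted, 0, 0 and 0 Calca UMIs were left there, so the levels in all 3 libraries were no higher than the estimated background. Calca and Tac1 fell in the unnamed Mrgpra3 and Tmprss11c cluster, where 1.93% of genes passed, with log2 fold changes of -0.70 (adjusted p = 0.0372) and -1.48 (adjusted p = 0.0294, all edgeR). There Calca stood at 541.2, 375.4 and 401.4 CPM and missed the threshold without the top nuclei (adjusted p = 0.057), and Tac1 at 102.8, 25.65 and 62.69 CPM, with a log2 fold change of -0.94 without aged library 1. DESeq2 called neither (adjusted p = 0.355 and 0.763), and Calca also missed the threshold with the precursors kept in the clustering (adjusted p = 0.0885). After thinning to 1000 UMIs the Calca estimate changed sign (0.60, adjusted p = 0.971, edgeR). Calca passed with a minimum of 2000 genes (adjusted p = 0.00918) and with free RNA subtracted (-1.11, adjusted p = 0.00576, both edgeR). The same subtraction left 98, 0 and 15 Tac1 UMIs there, so Tac1 in aged library 1 was no higher than the estimated background. Npy in the NP1 (Mrgprd)-like subtype had no adult UMI, 25 UMIs in aged library 1 and 1 in aged library 2 (adjusted p = 0.00724, 17.8% of genes passed), at least 7.06-fold higher taken against a floor of 3 adult counts. Of those 25 UMIs, 24 lay in 1 nucleus, and without it the gene had too few UMIs to be tested. With free RNA subtracted, 0, 17 and 0 UMIs were left and the call was lost (adjusted p = 0.236). The remaining 7 subtypes held no call.

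**Figure D4:**
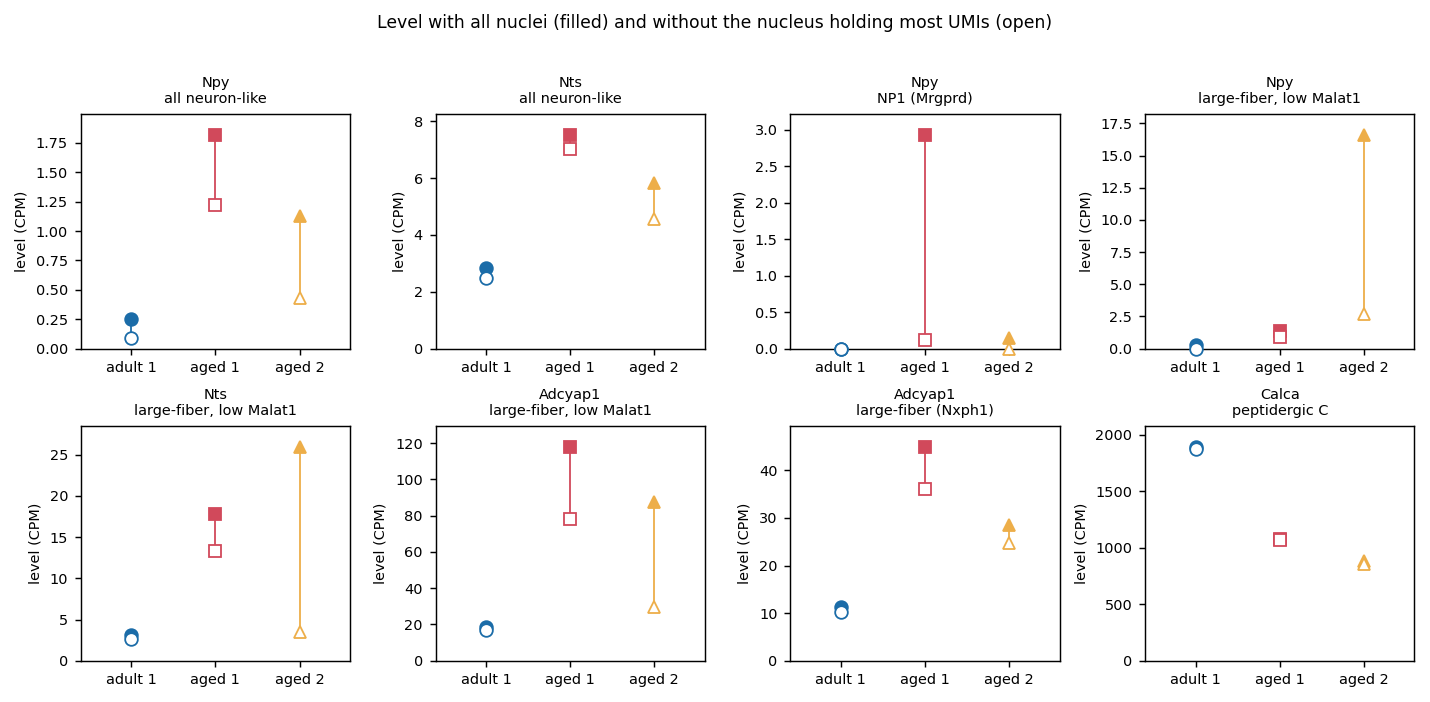
Level (CPM, linear axes from 0) of Npy, Nts, Adcyap1 and Calca in each library with all nuclei (filled) and without the UMIs of the nucleus that holds most of them (open). Calca in the peptidergic C subtype hardly moves, whereas Npy in the NP1 subtype of aged library 1 drops to near 0 and Nts in the large-fiber, low Malat1 cluster of aged library 2 drops from 25.89 to 3.44 CPM.

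In the NP3 (itch)-like subtype no precursor was called, and neither was any of the 10265 genes tested (0.00%) by edgeR, where 548 had an unadjusted p under 0.05 and DESeq2 called 33. That count of genes depended on the setting: edgeR called 245 with the precursors kept in the clustering, 271 with a minimum of 2000 genes, 201 with free RNA subtracted and 515 with a marker gate. Sst, Nppb and Nts had log2 fold changes of -0.49 (SE 0.604), -0.37 (SE 0.488) and -0.51 (SE 0.195), each with aged library 2 as the lowest. Of the 7 precursors tested there, Adcyap1 had the largest difference, from 40 UMIs in 15 adult nuclei to 8 in 7 and 6 in 3 (36.76, 10.94 and 7.829 CPM, log2 fold change -2.11, adjusted p = 0.782, edgeR).

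Whether an age difference in a subtype differed from the mean age difference of the other subtypes was tested in 1 fit over 39 sums, 13 subtypes by 3 libraries with the library as a block. The spread in this fit comes from the pair of aged libraries across subtypes, and none of it from the adult library. Its standard errors were above 100 for 24 of 117 pairs of precursor and subtype, which leaves those pairs untested. They comprised 11 of 13 for Npy, 11 of 13 for Nppb and 2 of 13 for Nts. Adcyap1 passed in 2 subtypes. In the large-fiber-like, low Malat1 cluster its log2 fold change lay 2.50 above the others (SE 0.309, adjusted p = 0.000196, where 0.0176% of 17035 genes passed), and in the NP3 (itch)-like subtype it lay 2.35 on the log2 scale below them (difference -2.35, SE 0.497, adjusted p = 0.0298, where 0.305% passed). Subtraction of free RNA left 24, 0 and 0 Adcyap1 UMIs in the latter. Adcyap1 in the Nxph1 subtype missed the threshold (difference 1.47, adjusted p = 0.0795), as did Calca in the peptidergic C-like subtype (difference -0.73, adjusted p = 1), so the fall of Calca was not shown to differ there from that in other neurons. Calca had a lower estimate in 11 of 13 subtypes tested and Calcb in 7 of 13. With free RNA subtracted, no aged Calca UMIs were left in the NP1 (Mrgprd)-like, C-LTMR-like and large-fiber-like (Nxph1, Skor2 and Lgi2) subtypes. The same held for the C-LTMR-like, low Malat1 cluster. Aged Calca levels in these were no higher than the estimated background. In the Lgi2 subtype that background was taken as 30.1, 64.9 and 24.2% of UMIs, highest in aged library 1.

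Summed over all neuron-like nuclei, 2 of the 9 precursors tested passed, Npy and Nts, both higher in the aged libraries. Of the 21893 genes tested in that sum, 9.56% passed and 1.91% were higher. The sum mixes subtypes whose shares differ between libraries, so fewer nuclei of a type and less RNA in each cannot be told apart there. Npy stood at 0.2542, 1.817 and 1.131 CPM (log2 fold change 2.41, SE 0.498, adjusted p = 5.17e-05, edgeR), and its UMIs were seen in 6, 23 and 11 nuclei. Without the top nuclei, Npy stood at 0.08978, 1.221 and 0.4324 CPM and still passed (log2 fold change 3.08, adjusted p = 9.81e-05). Nts stood at 2.826, 7.519 and 5.819 CPM (1.12, SE 0.289, adjusted p = 0.00263), with a UMI in 1.73, 4.77 and 3.78% of nuclei, and passed without the top nuclei too (1.11, adjusted p = 0.00419). DESeq2 called neither (adjusted p = 0.0647 for Npy and 0.0904 for Nts), nor did edgeR with free RNA subtracted, where the log2 fold changes were 1.78 for Npy and 1.00 for Nts (adjusted p = 0.0775 and 0.0892). Without the low Malat1 clusters, which were a larger share of the aged neuron-like nuclei, 7.56% of genes passed but neither of these did (adjusted p = 0.182 and 0.09). With the top nuclei also left out, Npy stood there at 0.08195, 1.186 and 0.2527 CPM and Nts at 2.477, 5.539 and 3.323 CPM. Both were still higher in each aged library, and the part of the low Malat1 clusters in the rise was not tested. Calca alone passed there, lower in the aged libraries (log2 fold change -0.56, adjusted p = 0.0486, edgeR), a call that was lost after thinning (-0.55, adjusted p = 0.167, edgeR). The marker gate does not separate low Malat1 nuclei, so its value for Calca (-0.45, adjusted p = 0.279, edgeR) covers all gated neurons. The other 7 precursors had log2 fold changes between -0.54 (Calca) and 0.13 (Nppb) in all neuron-like nuclei.

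Over all nuclei of a library, Npy was seen in 12, 54 and 24 nuclei (0.104, 1.05 and 0.919%) and Nts in 111, 163 and 67 (0.964, 3.18 and 2.57%). Nuclei with 5 or more Npy UMIs numbered 1, 6 and 1 and held 45.8, 61 and 44.7% of its UMIs. For Nts they numbered 8, 23 and 9. Both genes were thus rare and unevenly shared in each library, and the clusters that mixed glial and neuron markers held part of them. In the mixed MSC and neuron cluster (MSC are myelinating Schwann cells) Npy had 2, 41 and 6 UMIs (ratio of aged to adult CPM 13.5, counting interval 3.53 to 115, adjusted p = 0.000777, fitted log2 fold change 3.51, or 2.47 without aged library 1) and Nts rose (log2 fold change 2.00, adjusted p = 0.00338, or 1.25 without aged library 1), while Tac1 fell (-0.81, adjusted p = 1.15e-08, 6.54% of genes passed). In this cluster the neuron markers stood at a median of 92.2, 86 and 76.5% of their level in free RNA. That share also counts RNA of the cluster's own neurons as free RNA, so its subtraction cannot test these calls. With it subtracted, the log2 fold changes of Npy, Nts and Tac1 were 3.25, 6.50 and -2.17 (adjusted p = 0.549, 0.522 and 0.136, edgeR). That fit called none of 6919 genes (edgeR, 1129 at an unadjusted p under 0.05). Tac1 had -0.30 (adjusted p = 0.321) with the precursors kept in the clustering, and DESeq2 did not call Npy or Nts (adjusted p = 0.948 and 1). There 27 of the 41 Npy UMIs of aged library 1 lay in 1 nucleus. In the mixed SGC and neuron cluster Npy had 0, 15 and 5 UMIs (at least 4.89-fold higher, adjusted p = 0.0282) and Nts rose (2.54, adjusted p = 0.0465, all edgeR, 7.19% of genes passed). Neither passed with a minimum of 2000 genes (adjusted p = 0.109 and 0.134). The top nucleus held 60% of the Npy UMIs in aged library 1, and 65.5 and 62.5% of the Nts UMIs in aged libraries 1 and 2. Without the top nuclei neither gene was tested. Neuron markers stood there at a median of 41.2, 49.8 and 54.9% of their level in free RNA. With that share subtracted, which again counts the cluster's own neurons, edgeR called none of 11443 genes (850 at an unadjusted p under 0.05). Outside neuron and mixed clusters 1 call was made, Calca in myeloid-like nuclei (253.9, 149.3 and 131.3 CPM, log2 fold change -0.82, adjusted p = 0.0299, 11.7% of genes passed), which should lack the gene. It was lost in DESeq2 (adjusted p = 0.472), with a marker gate (0.716) and with a minimum of 2000 genes (0.0657).

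In free RNA 6 of the 9 precursors tested were higher in the aged libraries, and the other 3 had positive estimates as well. Of the 19189 genes tested there, 17.3% passed and 8.42% were higher. The median over the 9 was 0.69, beside -0.0112 over all genes tested. Npy went from 6 UMIs to 85 and 115 (log2 fold change 4.04, SE 0.436, adjusted p = 0.000701) and Nts from 84 to 207 and 341 (1.71, SE 0.241, adjusted p = 0.00264, both edgeR), in barcodes that hold at most 99 UMIs of all genes each. Adcyap1 rose by 0.85 (adjusted p = 0.00544), Calca by 0.58 (adjusted p = 0.0116), Gal by 0.55 (adjusted p = 0.0173) and Tac1 by 0.55 (adjusted p = 0.0196) on the log2 scale. Calcb (0.37, adjusted p = 0.0595), Sst (0.70, adjusted p = 0.104) and Nppb (0.69, adjusted p = 0.152) missed the threshold. Gal missed the threshold in DESeq2 (adjusted p = 0.203). In barcodes of 1 to 9 UMIs no precursor was called: the log2 fold changes were 0.11 for Calca, 0.07 for Tac1, 0.15 for Gal, 0.52 for Adcyap1 and 1.19 for Nts (adjusted p = 0.803, 0.909, 0.865, 0.0739 and 0.426). In the next deeper range of barcodes, from 100 UMIs, all 6 passed. Free RNA comes from all cells, so more RNA per cell, more neurons and more leakage cannot be told apart in it.

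Other genes of the peptide pathway were followed from lists chosen with earlier results of these data known. Of 15 other precursors, 8 were tested in all neuron-like nuclei, and 3 fell: Cartpt, the CART peptide (13.61, 7.843 and 8.546 CPM, log2 fold change -0.86, adjusted p = 0.00581), Nmb, neuromedin B (-0.64, adjusted p = 0.034), and Nmu, neuromedin U (-1.09, adjusted p = 0.0376). The median of the 8 was -0.24, beside 0.00995 over all genes tested, of which 9.56% passed. Cartpt (-1.20, adjusted p = 0.00081) and Nmb (-0.87, adjusted p = 0.00781) also fell in the peptidergic C-like subtype, out of 3 tested, where 3.62% of all genes were lower, and none of 7 was called in free RNA (all edgeR). Nmb was also called lower in the NP1 (Mrgprd)-like subtype and the large-fiber-like, low Malat1 cluster. Outside neurons it was called lower in MSC-like, NMSC-like (non-myelinating Schwann cells), SGC-like, myeloid-like and fibroblast-like (Mmp2 and Crispld2) nuclei.

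Among 14 genes of peptide processing and dense-core vesicles, all tested in all neuron-like nuclei, Pcsk2 alone passed, the prohormone convertase that cuts many precursors, from 661.3 CPM to 471.7 and 475.3 (log2 fold change -0.61, adjusted p = 0.0497). That is 1 of 14 where 9.56% of all genes passed, and the median was -0.00467. Pcsk2 was also called lower in the NP1 (Mrgprd)-like subtype and its low Malat1 cluster, and in the large-fiber-like (Nxph1 and A230006K03Rik) and peptidergic A-like subtypes. The large-fiber-like, low Malat1, the Mrgpra3 and Tmprss11c and the mixed MSC and neuron clusters had the same call. Outside neurons it was called lower in MSC-like, SGC-like, endothelial-like, myeloid-like and fibroblast-like (Mmp2 and Crispld2) nuclei. In the peptidergic C-like subtype Scg2, secretogranin II (659, 527 and 371.9 CPM, -0.71, adjusted p = 0.031), and Pcsk1n, the inhibitor of the convertase Pcsk1 (-0.60, adjusted p = 0.0468), were lower, 2 of the 14 where 3.62% of all genes were. In free RNA 7 of the 14 rose, Scg2 (0.96, adjusted p = 0.00119) and Vgf (0.89, adjusted p = 0.0106) the most, and none fell, where 8.42% of all genes were higher. The median of the 14 was 0.33, beside -0.0112 over all genes tested. Scg2 was also lower in the large-fiber-like, low Malat1 cluster (-0.43, adjusted p = 0.00315) and was higher in the C-LTMR-like, low Malat1 cluster (2.02, adjusted p = 2.39e-07), in SGC-like nuclei (0.61, adjusted p = 0.00682) and in the mixed MSC and neuron cluster (0.40, adjusted p = 0.0342, all edgeR).

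Of 29 receptor genes for the 10 peptides, 23 were tested in all neuron-like nuclei and 1 passed, a smaller share than the 9.56% of all genes that did. That gene, Npy1r, a receptor of neuropeptide Y, rose from 9.151 CPM to 16.23 and 17.62 (log2 fold change 0.76, adjusted p = 0.0191), with a median over the 23 of -0.07. It stood at 50.3, 89.45 and 80.27 CPM in the peptidergic C-like subtype, where it missed the threshold (0.60, adjusted p = 0.0881) and none of 13 receptors was called. In free RNA Npy1r rose (1.17, adjusted p = 0.0268) and Ramp2, a partner of the receptors for CGRP-related peptides, fell (-0.79, adjusted p = 0.0303, all edgeR), 2 of the 22 tested, where 17.3% of all genes passed.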

How the data were processed

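Nuclei of frozen L3 to L5 DRG were profiled by PIP-seq, which counts 3' ends with UMIs. The deposited matrices hold the authors' raw UMI counts per gene and barcode, made with Pipseeker on mm10, with no filter on barcodes. The matrices of the adult library and aged libraries 1 and 2 summed to 167664164, 95647106 and 69045987 UMIs. As in the first filter of the study, nuclei are the barcodes in which over 1000 genes were detected (53.84, 58.4 and 54.5% of UMIs). Barcodes of 10 to 99 UMIs were taken as free RNA. Its share in a neuron subtype was the median level, relative to free RNA, of marker lists of other cells. These lists were of myelinating Schwann, endothelial, fibroblast and myeloid cells, so RNA of such cells attached to a neuron counts as free RNA. In all other clusters neuron marker lists were used. The study then removed clusters that it judged to be of low quality or doublets. That step was not repeated, and all 19259 nuclei entered the clustering. Nuclei were normalised with SCTransform by age, integrated by RPCA on 30 components and clustered at resolution 0.8 in Seurat 5.3.0, without the 10 precursors. With the precursors kept in, 87.2% of nuclei fell in the same class or subtype. A cluster was named from 3 or more markers past a 2-fold difference. No doublet caller was run. Instead 2 clusters with markers of glia and neurons and 1 unnamed cluster (8.66, 11.7 and 9.73% of nuclei) were kept out of the named classes.

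UMIs were summed per library and subtype, and aged was compared with adult by edgeR 4.0.16 (R 4.3.3, TMM scaling, filterByExpr, glmQLFit and glmQLFTest, 1 residual degree of freedom within a subtype), with Benjamini-Hochberg adjustment over all genes tested in that fit. The age by subtype interaction was fitted over 39 sums with the library as a block (12 residual degrees of freedom). These all come from the pair of aged libraries across subtypes, so the spread between adult libraries is not measured in that fit either. The test on single nuclei used in the study was not run, since nuclei are not replicates. Scripts were tested on simulated data. Shares of nuclei have exact Clopper-Pearson 95% intervals, which, like floors of 3 counts, cover counting error only.

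The precursors, the pathway lists and the markers were chosen with earlier results of these data known. By rule, each precursor is described in the subtype of its highest mean, with every class where its age difference passed, and with the 3 genes most like it where it had 200 or more UMIs in neuron-like nuclei. Of these, 1 for Calca is not reported here. From each pathway list the genes called with the largest differences are named. Alternatives were DESeq2 1.42.0, its size factors in edgeR, no filter on low counts, precursors kept in the clustering, a marker gate in place of clusters, a minimum of 2000 genes, subtraction of free RNA, thinning to 1000 UMIs per nucleus, other ranges for free RNA, and each library left out. Leaving out the low Malat1 clusters or the nucleus with most UMIs of a precursor was added after the data were seen. Gene positions are those of the GENCODE annotation of GRCm38, and promoters come from RefSeq.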

Additional observations from a re-analysis of the deposited data

Results flagged for a closer look

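The age difference of Adcyap1 differed between neuron subtypes, by a test of the difference itself in edgeR. In the large-fiber-like, low Malat1 cluster its log2 fold change lay 2.498 above the mean of the other subtypes (SE 0.309, adjusted p = 0.000196), with 18.7 CPM in the adult library and 117.6 and 87.61 CPM in the aged ones. In the NP3 (itch)-like subtype the difference from the other subtypes was -2.354 (SE 0.497, adjusted p = 0.0298), with 40, 8 and 6 UMIs. In the first of these, 34.4 and 67.4% of the aged UMIs lay in 1 nucleus of each library, and the difference between subtypes was not tested without them. With free RNA subtracted, that fit gave Adcyap1 standard errors above 100 in all 13 subtypes, so it could not test either difference. After that subtraction 24, 0 and 0 Adcyap1 UMIs were left in the NP3 (itch)-like subtype, so both aged values there were no higher than the estimated background and the size of that difference is uncertain.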

How the results depend on the processing

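The count of precursors called in all neuron-like nuclei, 2, was 1 with free RNA subtracted (Calca, lower), 1 without the low Malat1 clusters, and 0 both after thinning to 1000 UMIs and in DESeq2. The 14 calls in subtypes were 4 after thinning, 6 in DESeq2 and 9 without the low Malat1 clusters. The 6 calls in free RNA were 0 in barcodes of 1 to 9 UMIs, and the 2 calls for a differing age effect were 0 with free RNA subtracted, a fit with standard errors above 100 for 105 of 117 pairs of precursor and subtype, which leaves those calls untested. At an unadjusted p under 0.05 these settings with 0 calls held 2 precursors (thinning, edgeR), 3 (DESeq2), 1 (barcodes of 1 to 9 UMIs, edgeR) and 6 pairs (interaction, edgeR). Thinning left 33 pairs of precursor and subtype to test, and the cause of the other changes was not tested. Under the remaining alternatives these counts stayed within 1.5 times their values. Estimates that changed sign belonged to the NP3 (itch)-like subtype, where none was called, and to Calca in the Mrgpra3 and Tmprss11c cluster. After thinning, the log2 fold change was 0.60 for that Calca, 0.13 for Sst and 1.43 for Nppb. With a marker gate in place of clusters it was 0.31 for Sst, 0.49 for Nppb and 0.59 for Nts, and with 1 aged library left out it ranged from -0.87 to 0.012 for Nppb. Adcyap1 in the large-fiber-like, low Malat1 cluster passed under every alternative that tests it.

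Of the levels in the highest subtype, those of Sst, Nppb and Nts moved by more than 1 SD with a marker gate and after thinning, and that of Nts with free RNA subtracted (105.1 CPM). For Calcb, highest in a low Malat1 cluster, the marker gate has no matching set of nuclei.

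No paired analysis was possible because the groups share 1 replicate number. Leaving out an aged library leaves 1 library on each side, so those values carry no test. Depth limits the NP3 (itch)-like subtype, with 61 to 179 UMIs of Sst and 61 to 116 of Nts per library, and Npy and Vip everywhere.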
